A study of Mus musculus with 2 samples.

Results

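The genes described here encode the enzymes of N-linked glycosylation, 42 of the 18193 genes that could be named on the array, from the supply of activated sugars in the cytosol to the first branching steps in the Golgi apparatus. They were matched by gene symbol to probe sets that name exactly 1 gene, and all 42 were found. The list was selected on knowledge of the log2 ratios between these same arrays, so every count below is a description of the genes and supports nothing by itself. RNA came from the mouse macrophage line RAW264.7, whose cells can form osteoclasts, transfected with scramble siRNA or with *Flcn* targeted siRNA, which aims at the transcript of the tumour suppressor folliculin. Both cultures were grown in RPMI-1640 with 10% FCS, received MEM with 10% FCS 24 hours after transfection and were harvested after 48 hours more, and neither the labels nor the methods of the array experiment name RANKL. Each condition was measured on 1 Affymetrix Mouse Genome 430 2.0 array, so the differences could not be set against a spread between replicates, none was tested, and the precision is limited by having 1 array of each kind. An effect of the siRNA sequence or of the culture cannot be told apart from that of lowering *Flcn*.

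N-linked glycosylation attaches a preformed, branched sugar tree to asparagine residues of proteins as they enter the endoplasmic reticulum (ER). The tree is built on the lipid dolichol from UDP-GlcNAc, GDP-mannose and glucose donors, moved to the protein by the oligosaccharyltransferase, trimmed while the protein folds, and rebuilt in the Golgi apparatus. In macrophages and osteoclasts it modifies most receptors, adhesion proteins and lysosomal hydrolases, and inherited defects in many of these enzymes cause congenital disorders of glycosylation.

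The deposited values are linear signal intensities. Where a gene had several probe sets, the brightest over both arrays by geometric mean stands for it, and its value is a log2 ratio, the signal after *Flcn* siRNA divided by that after scramble siRNA. The medians over probe sets were 12.8 after scramble siRNA and 13.6 after *Flcn* siRNA, and weaker signals were set to the median of their array. The signal filter kept genes whose geometric mean signal reached 13.2, which 41 of the 42 genes and 10285 of all genes did. In what follows a gene is called higher or lower where its fold change was at least 1.5, without regard to any error. *Flcn* itself had signals of 209 with scramble siRNA and 145 with *Flcn* siRNA at 1 probe set. At the other above the filter it had 241 and 206. The log2 ratios were -0.52 and -0.22, so neither reached 1.5-fold. A further probe set of *Flcn* lay under the filter, with 8 and 7.2. *Gpnmb*, the study's readout of *Flcn* deficiency, had 294 and 2500, and 11.5 and 61.3 at its other probe set. All 10 listed macrophage markers passed the filter, among them *Csf1r* with signals of 5375 and 5318 and *Cd68* with 3384 and 3615. Of listed fibroblast, epithelial and lymphocyte markers, 3 of 16 measured genes passed it, and the highest signal among the 16 was 19.9, that of *Krt5*. Among osteoclast markers 5 of 9 passed it, and *Ctsk* was higher, with 17.2, close to the array median, and 58.4, as was *Atp6v0d2*, with 43.0 and 119. *Acp5*, *Dcstamp* and *Ocstamp* stayed within 1.5-fold, with log2 ratios of 0.35, 0.15 and 0.04. *Calcr*, *Oscar*, *Mmp9* and *Itgb3* lay under the filter.

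Of the 41 genes above the filter, 29 had a log2 ratio below 0 and 12 above 0, with a median of -0.20, beside 48.1% of all genes below 0, 51.7% above 0 and a median of 0.01 over all genes. Those above 0 were 8 when both arrays were scaled to the same median, under which *Dad1*, *Alg10b*, *Alg6* and *Pmm2* lay below 0, beside 60.2% of all genes below 0 in that setting. Lower by 1.5-fold or more were 5 of the 41, or 12.2%, beside 5.52% of all genes, and 0 were higher by as much, beside 5.85%. The 5 were *Gmppb*, *Gfpt1*, *Gnpnat1*, *Uap1* and *Alg12*, and 4 of them act in making the sugar donors. Just inside the call lay *Alg12*, 1.67-fold lower, and just outside it *Mcfd2*, 1.47-fold lower. A log2 ratio below -0.2 was found for 20 of the genes, beside 24.4% of all genes, and one above 0.2 for 5, beside 26.8%. With this median scaling the median over all genes moved from 0.01 to -0.07, 7.85% of all genes were lower and 4.06% higher, and 8 of the 41 genes were lower.

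**Figure D1:**
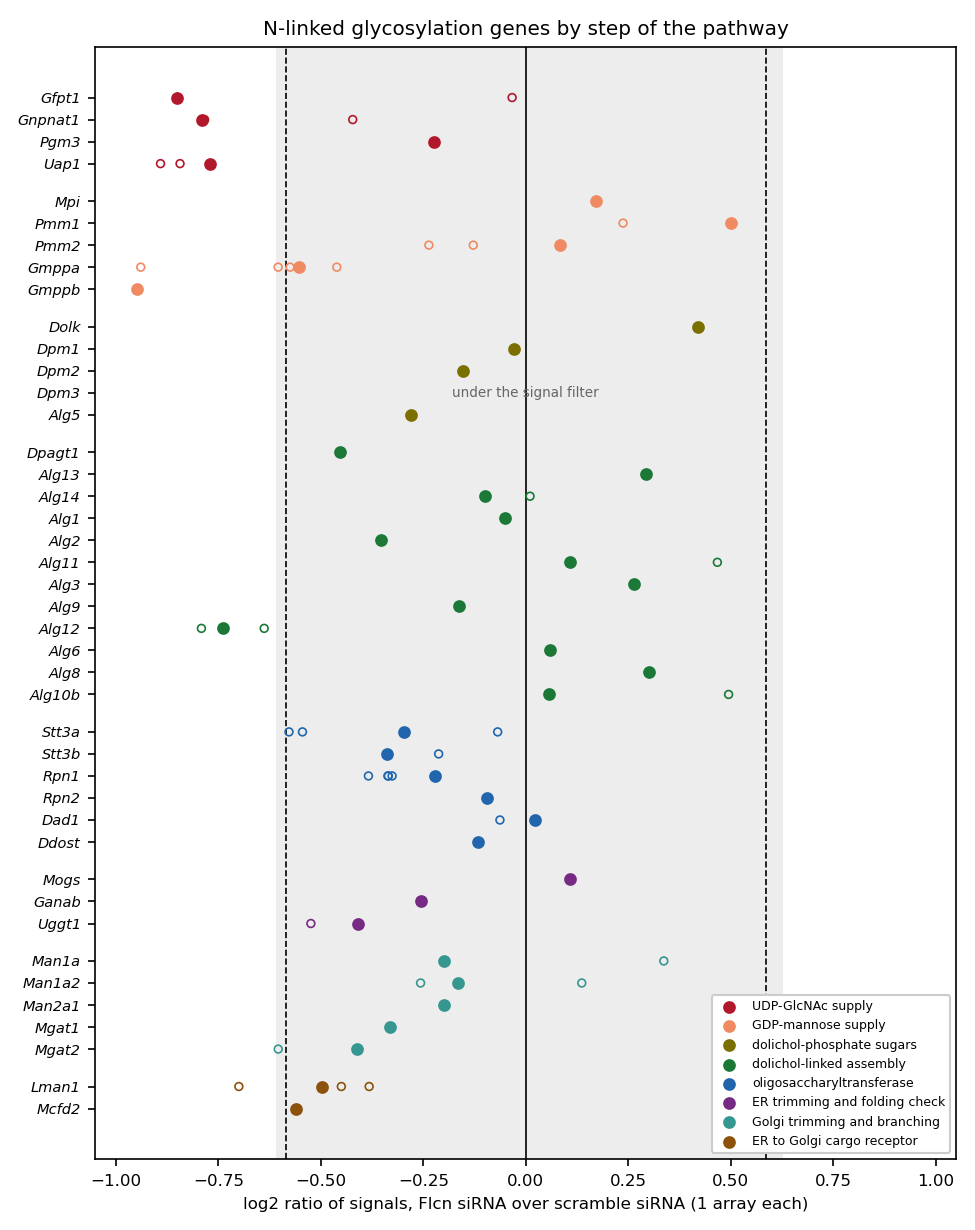
Log2 ratios (signal after *Flcn* siRNA divided by signal after scramble siRNA) of every gene by step of the pathway, from 1 array per condition. Filled points are the probe sets used and open points other probe sets of the gene above the signal filter, dashed lines mark 1.5-fold, and the grey band holds the middle of all genes from the 5th to the 95th percentile (-0.61 to 0.62). The filled points left of the left dashed line are *Gmppb*, *Gfpt1*, *Gnpnat1*, *Uap1* and *Alg12*.

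The probe sets of a gene allow a check that is technical only. The 42 genes had 94 probe sets, 75 of them above the filter, of which 57 (76.0%) lay below 0, beside 48.2% of all probe sets above the filter, 14 (18.7%) were lower by 1.5-fold or more, beside 5.91%, and 0 were higher by as much. Of the 19 genes for which 2 or more probe sets passed, 11 had all of them below 0, 3 had all above 0 and 5 had them on both sides. Within a gene, the log2 ratios of the probe sets had an SD whose median was 0.16 for these 19 genes and 0.19 over 5034 such genes of the array. For 11 of the 41 genes the probe set used is not unique to 1 transcript by its name. When the log2 signals of all probe sets of a gene were averaged instead, weak ones included, *Gnpnat1*, *Uap1* and *Gfpt1* were no longer called lower, with -0.48, -0.47 and -0.09, while *Gmppb* and *Alg12* were and *Gmppa* was added.

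**Figure D2:**
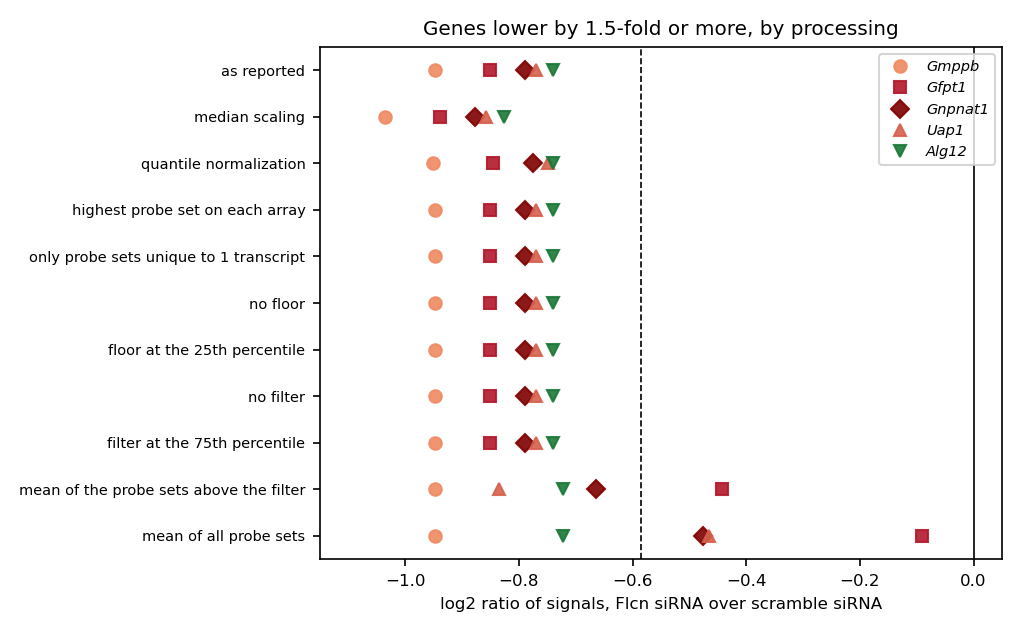
Log2 ratios (*Flcn* siRNA array divided by scramble siRNA array) of the 5 genes lower by 1.5-fold or more, under each way of processing. The dashed line marks 1.5-fold and the solid line 0. The points of *Gmppb* (-1.04 to -0.95) and *Alg12* (-0.83 to -0.72) stay left of the dashed line, and those of *Gfpt1* reach from -0.94 to -0.09.

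Promoter sequences are shown for the genes with the lowest and the highest log2 ratios whose probe sets lay on the same side of 0 and for which the RefSeq-based table (GRCm38.p6) holds a sequence, and for *Alg12*, which was added after its values were seen. Each runs 5′ to 3′ on the gene's strand, from 250 bases before to 50 bases after the start of the transcript. Capitals mark matches to the motifs searched. These were the ER stress response element (ERSE, CCAAT and CCACG with any 9 bases between them), ERSE-II (ATTGG and CCACG with any 1 base between them), the core of the unfolded protein response element (UPRE, TGACGTGG), the E-box CACGTG and the M-box TCATGTG, both bound by factors of the Tfe3 family, and the CCAAT box, each on both strands. The CCAAT box is also the first part of an ERSE.
*Gfpt1* (chr6:87042596-87042895, plus strand, lower): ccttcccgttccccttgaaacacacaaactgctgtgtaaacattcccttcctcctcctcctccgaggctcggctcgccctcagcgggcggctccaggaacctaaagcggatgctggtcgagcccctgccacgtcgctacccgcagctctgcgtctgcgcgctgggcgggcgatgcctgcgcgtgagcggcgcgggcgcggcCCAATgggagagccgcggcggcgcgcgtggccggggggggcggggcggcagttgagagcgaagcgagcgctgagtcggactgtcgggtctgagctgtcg
*Uap1* (chr1:170174915-170175214, minus strand, lower): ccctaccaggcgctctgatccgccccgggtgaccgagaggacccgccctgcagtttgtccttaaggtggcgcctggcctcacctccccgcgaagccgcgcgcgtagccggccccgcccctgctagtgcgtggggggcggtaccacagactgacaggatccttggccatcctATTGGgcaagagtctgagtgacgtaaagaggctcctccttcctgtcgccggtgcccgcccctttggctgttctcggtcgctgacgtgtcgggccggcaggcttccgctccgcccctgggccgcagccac
*Alg12* (chr15:88819269-88819568, minus strand, lower): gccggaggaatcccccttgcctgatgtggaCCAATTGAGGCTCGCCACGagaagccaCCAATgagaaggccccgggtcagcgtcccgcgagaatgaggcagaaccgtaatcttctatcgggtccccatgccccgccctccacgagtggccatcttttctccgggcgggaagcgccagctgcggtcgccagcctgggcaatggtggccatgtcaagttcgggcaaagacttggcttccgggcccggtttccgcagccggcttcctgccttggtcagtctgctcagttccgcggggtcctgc
*Dolk* (chr2:30286305-30286604, minus strand, log2 ratio above 0): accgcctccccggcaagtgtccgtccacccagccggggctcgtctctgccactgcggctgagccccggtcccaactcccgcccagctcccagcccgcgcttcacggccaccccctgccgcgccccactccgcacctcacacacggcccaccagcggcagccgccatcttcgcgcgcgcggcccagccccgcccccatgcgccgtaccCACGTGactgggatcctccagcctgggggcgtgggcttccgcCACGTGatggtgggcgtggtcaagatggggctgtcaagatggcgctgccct
*Pmm1* (chr15:81960881-81961180, minus strand, log2 ratio above 0): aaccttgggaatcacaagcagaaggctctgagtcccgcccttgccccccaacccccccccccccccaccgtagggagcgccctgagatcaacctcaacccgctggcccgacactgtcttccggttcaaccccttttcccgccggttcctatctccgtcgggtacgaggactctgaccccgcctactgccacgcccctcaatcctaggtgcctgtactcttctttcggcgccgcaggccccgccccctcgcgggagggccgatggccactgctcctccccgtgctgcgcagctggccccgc

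The table held 38 promoter windows for 35 of the 42 genes and none for *Gmppb*, *Gnpnat1*, *Dpagt1*, *Alg2*, *Alg11*, *Lman1* and *Man1a2*. An ERSE was found in 1 of the 38 windows, that of *Alg12*, beside 0.119% of 32851 windows of the same length, and ERSE-II, the UPRE core and the M-box in none of the 38, beside 0.0365%, 0.676% and 3.77% of all windows. The *Alg12* window overlaps by 173 bases that of its neighbour *Creld2*, which is read in the opposite direction and encodes an ER stress-inducible protein. The ERSE at chr15:88819520-88819538 lies in both windows. *Creld2* had signals of 2812 with scramble siRNA and 971 with *Flcn* siRNA, a log2 ratio of -1.53, and *Alg12* 182 and 109, a log2 ratio of -0.74. Other windows also overlapped those of measured neighbours. On the same side of 0 lay *Dolk* (0.42) and *Nup188* (0.36), *Dpm1* (-0.03) and *Mocs3* (-0.02), and *Dad1* (0.02) and *Abhd4* (0.09). On opposite sides lay *Alg5* (-0.28) and *Exosc8* (0.38), *Pgm3* (-0.22) and *Rwdd2a* (0.28), and *Pmm2* (0.08) and *Tmem186* (-0.20). Whether a shared window bears on these log2 ratios was not tested. An E-box was found in 4 of the 38 windows (10.5%), those of *Dolk*, *Dpm2*, *Alg1* and *Mcfd2*, beside 7.15% of all windows, and their log2 ratios were 0.42, -0.15, -0.05 and -0.56. A CCAAT box was found in 19 of the 38, beside 37.4%. A match says only that these letters are in the window.

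The enzymes that make UDP-GlcNAc, the donor of the sugar that is joined to the lipid and to asparagine, had a median of -0.78 for 4 genes, the lowest of the 8 steps, though not with the mean of all probe sets, where it was -0.34 and that of the cargo receptor -0.47. *Gfpt1*, the rate-limiting enzyme of this hexosamine pathway, had signals of 1513 with scramble siRNA and 839 with *Flcn* siRNA, 1.80-fold lower. Its other probe set above the filter had 231 and 225, a log2 ratio of -0.03, so the call of *Gfpt1* rests on 1 probe set. *Gnpnat1*, which acetylates glucosamine 6-phosphate, had 800 and 463, 1.73-fold lower. Its other probe sets above the filter had 795 and 462, with a log2 ratio of -0.78, and 133 and 99.1, with -0.42. All 3 lay below 0, and a further one lay under the filter, with 6.4 and 11.4. *Uap1*, which joins the sugar to UTP, had 710 and 416, 1.70-fold lower, and its other probe sets above the filter had log2 ratios of -0.84 and -0.89. *Pgm3*, the mutase between *Gnpnat1* and *Uap1*, had 121 and 104, a log2 ratio of -0.22, which 22.2% of all genes reached or lay under. *Gfpt2*, an isoenzyme of *Gfpt1*, lay under the signal filter, with 12.1 and 8.6. Of the genes around this route, *Amdhd2*, which deacetylates its intermediate in the opposite direction, had 393 and 261 and was also called lower, with -0.59.

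The genes of GDP-mannose supply lay on both sides of 0. *Gmppb*, the catalytic subunit of GDP-mannose pyrophosphorylase, had signals of 295 and 153 at its only probe set, 1.93-fold lower, and 1.35% of all genes lay as low or lower. *Gmppa*, its regulatory partner, had 462 and 315, 1.47-fold lower, and its 5 probe sets ranged from -0.94 to -0.46 on the log2 scale. Both subunits lay below 0 at each probe set above the filter, and the log2 ratio of *Gmppa* was greater by 0.39. The enzymes before them lay on the other side of 0 at the probe sets used. *Mpi*, which draws mannose 6-phosphate from glycolysis, had 140 and 158, with a log2 ratio of 0.17. *Pmm1*, a phosphomannomutase, had the highest log2 ratio of the 41 genes, 0.50, with signals of 105 and 149, and its other probe set had 0.24. *Pmm2*, the paralogue whose loss causes the most common congenital disorder of glycosylation, had 170 and 180, a log2 ratio of 0.08 that lay under 0 with median scaling, and its other probe sets had -0.24 and -0.13. The median of the 5 genes was 0.08, but -0.0048 with median scaling and -0.35 over probe sets unique to 1 transcript, which leave out *Pmm1*. There weaker probe sets also stood for *Pmm2*, with 23.5 and 21.5 (-0.13), and for *Gmppa*, with 29.5 and 19.8 (-0.58).

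**Figure D3:**
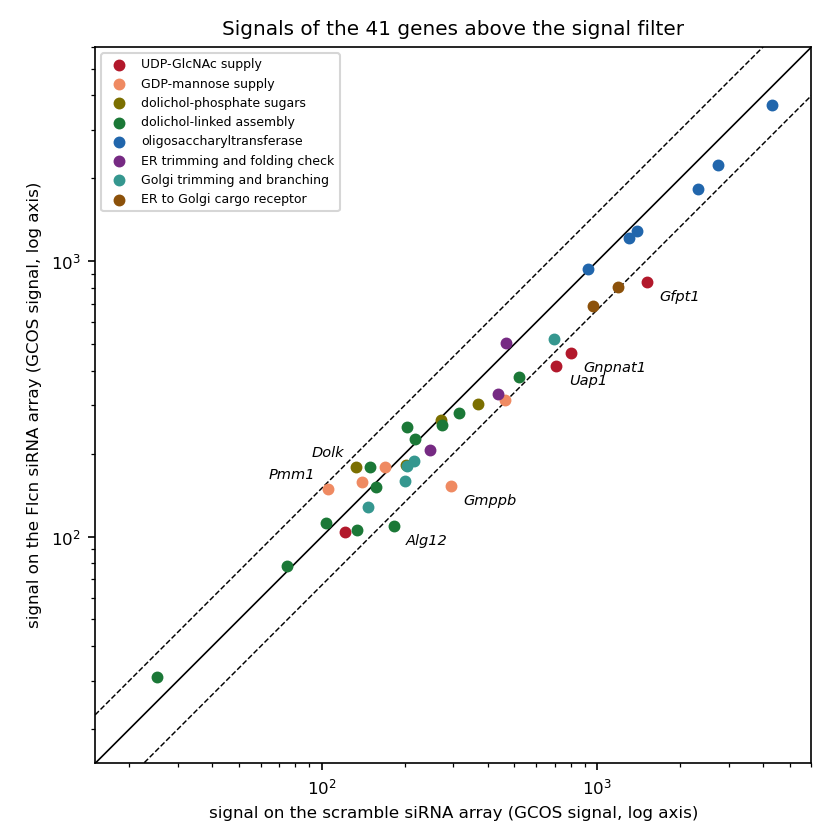
Signal on the *Flcn* siRNA array against signal on the scramble siRNA array, both on log axes, for the 41 genes above the signal filter, coloured by step. The solid line marks equal signals and the dashed lines 1.5-fold; *Gfpt1*, *Gnpnat1*, *Uap1*, *Gmppb* and *Alg12* lie under the lower dashed line, and *Pmm1* and *Dolk* lie above the solid line and inside the upper dashed line. Signals of different probe sets cannot be compared with each other as transcript levels.

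The dolichol-phosphate sugars stayed within 1.5-fold. *Dolk*, which phosphorylates dolichol, had signals of 134 and 179, with a log2 ratio of 0.42, the next highest after *Pmm1*. *Dpm1*, the catalytic subunit of dolichol-phosphate mannose synthase, had 270.7 and 265.4, with -0.03, and *Dpm2*, a further subunit, had 202 and 182, with -0.15. A further probe set that names both *Dpm1* and *Adnp* was left out and had 601 and 671. *Dpm3*, the third subunit, lay under the signal filter, with 11.1 and 13.4. *Alg5*, which makes the glucose donor, had 368 and 303, with -0.28.

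Among the 12 genes that build the lipid-linked tree, 6 lay above 0 and 6 below it, with a median of 0.0026, or -0.085 with median scaling. The GlcNAc transferases open the series on the cytosolic face of the ER. *Dpagt1*, which starts the tree and is the target of tunicamycin, had 522 and 381, a log2 ratio of -0.45. *Alg14*, the membrane anchor of the next transferase, had 272 and 254, with -0.10, while its catalytic partner *Alg13* had 25.2 and 30.9, with 0.29 on a weak signal. Of the cytosolic mannosyltransferases, *Alg1* had a log2 ratio of -0.05, *Alg2* -0.35 and *Alg11* 0.11. *Alg2* had 135 and 105, and the other probe set of *Alg11*, with 20.4 and 28.2, had 0.47.

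The mannosyltransferases of the ER lumen act in the order *Alg3*, *Alg9*, *Alg12*, and had log2 ratios of 0.26, -0.16 and -0.74. *Alg12* was the only gene of the lipid-linked assembly called lower, 1.67-fold, and its probe sets had -0.79, -0.74 and -0.64. Its signals were 182 and 109 at the probe set used, 156 and 89.9 and 114 and 73.5 at the others. *Alg3* had 149 and 179, and *Alg9* 315 and 282. The glucosyltransferases that finish the tree lay above 0, *Alg6* with 0.06, *Alg8* with 0.30 and *Alg10b* with 0.06, of which *Alg6* and *Alg10b* lay below 0 with median scaling. *Alg8*, which adds the second glucose, had 203 and 250. *Alg10b* had 218 and 227, and its other probe set had 149 and 210, a log2 ratio of 0.49.

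The 6 subunits of the oligosaccharyltransferase, which moves the tree onto the growing protein, had small log2 ratios, 5 of them below 0 and a median of -0.17. The catalytic subunits *Stt3a* and *Stt3b*, which form separate complexes, had -0.30 and -0.34. *Stt3a* had signals of 2754 and 2241 at the probe set used, which is not unique to 1 transcript, and 2367 and 1623 at a unique one, with -0.54. Its 4 probe sets above the filter ranged from -0.58 to -0.07, and all lay below 0. *Stt3b* had 2323 and 1837, and -0.21 at its other probe set. *Rpn1*, which binds the ribosome side of the complex, had 4300 and 3686, with -0.22, and its 5 probe sets above the filter ranged from -0.38 to -0.22. *Rpn2* had 1300 and 1218, with -0.09, *Ddost* 1399 and 1290, with -0.12, and *Dad1* 924 and 939, with 0.02 or below 0 with median scaling.

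Further subunits had a median of -0.34 over 6 genes, with none past 1.5-fold at the probe sets used. *Ostc*, which tethers the *Stt3a* form to the translocon, had 1960 and 1384, a log2 ratio of -0.50, and *Magt1*, an oxidoreductase subunit of the *Stt3b* form, had 1178 and 859, with -0.46. The other probe set of *Ostc* had -0.82. At the other end, *Ost4* had 0.18 and *Tmem258* 0.05, the latter below 0 with median scaling. The translocon and signal peptidase genes listed beside them lay below 0 in 14 of 14 cases at the probe sets used. Of all genes 48.1% lay below 0, and the median of this list was -0.36. Other probe sets of *Spcs1*, *Sec11c* and *Sec63* reached 0.36, 0.14 and 0.01. Lower by 1.5-fold or more were 3 (21.4%), beside 5.52% of all genes. The 3 were *Sec61a1*, the channel subunit, with 1884 and 1187, *Ssr3* with 2464 and 1563 and *Tram1* with 1443 and 957. The call of *Tram1*, with -0.59, rests on 1 probe set, and its other one had 0.13. Closest to 0 were *Ssr1*, with -0.07 but -0.94 at its lowest probe set, and *Sec62*, with -0.01.

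In the ER, glucosidases trim the tree and a folding sensor adds glucose back to unfolded proteins. *Mogs*, glucosidase I, had signals of 468 and 504, with a log2 ratio of 0.11. *Ganab*, the catalytic subunit of glucosidase II, had 247 and 207, with -0.26, and *Uggt1*, the folding sensor, had 437 and 329, with -0.41, and -0.52 at its other probe set. Lectin chaperones and ER mannosidases, another list, lay below 0 in 10 of 10 cases, beside 48.1% of all genes, with a median of -0.38. *Edem2*, a mannosidase that marks misfolded glycoproteins for degradation, had 295 and 154 and was 1.92-fold lower, and *Os9*, a lectin of the same route, had -0.52. Closest to 0 at the probe sets used were *Canx*, which encodes calnexin, with -0.17, and *Edem1*, with -0.08. Their lowest probe sets had -0.48 and -0.85, so the place of *Edem1* depends on the probe set. Other probe sets of *Erlec1* and *Pdia3* reached -1.14 and -0.92.

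The 5 Golgi genes and both genes of the cargo receptor lay below 0 at the probe sets used, and none reached 1.5-fold there. *Mgat1* and *Mgat2*, the GlcNAc transferases that open the branches, had signals of 200 and 159, with a log2 ratio of -0.33, and of 695 and 523, with -0.41. The other probe set of *Mgat2* had -0.60. The Golgi mannosidases *Man1a*, *Man1a2* and *Man2a1* had -0.20, -0.17 and -0.20. *Man1a* had 148 and 128 at the probe set used but 76.9 and 97.1 at its other one, and *Man1a2* also had a probe set above 0, with 0.14, so their direction depends on the probe set. *Lman1*, a mannose-binding lectin that carries glycoproteins from the ER to the Golgi apparatus, had 968 and 686, with -0.50, and its 4 probe sets above the filter ranged from -0.70 to -0.38. *Mcfd2*, its calcium-binding partner, had 1191 and 808, with -0.56. With median scaling *Lman1*, *Mcfd2* and *Gmppa* were called lower as well, and with probe sets unique to 1 transcript *Lman1* was, with -0.70.

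Among 6 pairs of related or partner genes, *Stt3a* and *Stt3b* differed by 0.04 at the probe sets used and *Man1a* and *Man1a2* by -0.03. With probe sets unique to 1 transcript *Stt3a* had -0.54 and *Stt3b* -0.34. *Rpn1* and *Rpn2* differed by -0.13 and *Alg6* and *Alg8* by -0.24. At the probe sets used, the widest gaps were those of *Pmm1* over *Pmm2*, 0.42, and of *Gmppa* over *Gmppb*, 0.39, but one probe set of *Gmppa*, with -0.94, lay next to *Gmppb*, with -0.95. These gaps have no replicate check.

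The same values were taken for other genes of the pathway. Their lists come from general knowledge but were drawn up with earlier results of these data known, so these counts are a description too. Of 83 that passed the filter out of 89 listed, 61 lay below 0 (73.5%), beside 48.1% of all genes, and the median was -0.20. Lower by 1.5-fold or more were 6 (7.23%), beside 5.52% of all genes, and 0 were higher by as much, beside 5.85%. Besides those named above, *Slc35b1*, an ER nucleotide carrier, was lower, with 1346 and 846. Other sugar nucleotide enzymes and carriers had a median of -0.17 over 22 genes, with *Nanp* highest at 0.49, then *Fcsk* at 0.13. *Fcsk* had signals of 42.2 and 46.1 at the probe set used. Its 3 probe sets ranged from -1.02 to 0.13, so its direction depends on the probe set. Enzymes of later Golgi steps had a median of -0.06 over 14 genes, from *Mgat4a* at -0.58 and *St6gal1* at -0.47 to *B4galt1* at 0.13 and *St3gal4* at 0.29. Those of dolichol synthesis had -0.08 over 5, from *Srd5a3* at -0.31 and *Nus1* at -0.24 to *Dhdds* at 0.05, below 0 with median scaling, and *Mpdu1* at 0.14. Probe sets of *Srd5a3* (-0.33 to 0.46), *Nus1* (-0.81 to 0.04) and *Dhdds* (-0.44 to 0.05) lay on both sides of 0. The direction of these genes depends on the probe set. Genes of N-glycan removal had -0.13 over 7, from *Ngly1* at -0.28 and *Man2c1* at -0.18 to *Manba* at 0.09, below 0 with median scaling, and *Engase* at 0.54. Mannose 6-phosphate tagging, which sends hydrolases to lysosomes, was the list with all genes above 0, 5 of 5, beside 51.7% of all genes. Its median was 0.11. *Gnptab*, which encodes the tagging enzyme, had 261 and 385, with log2 ratios of 0.56 to 0.58 at its 3 probe sets, and *Nagpa*, which uncovers the tag, had 0.33. *Gnptg* and *Igf2r* of this list, both with 0.01, lay below 0 with median scaling.

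**Figure D4:**
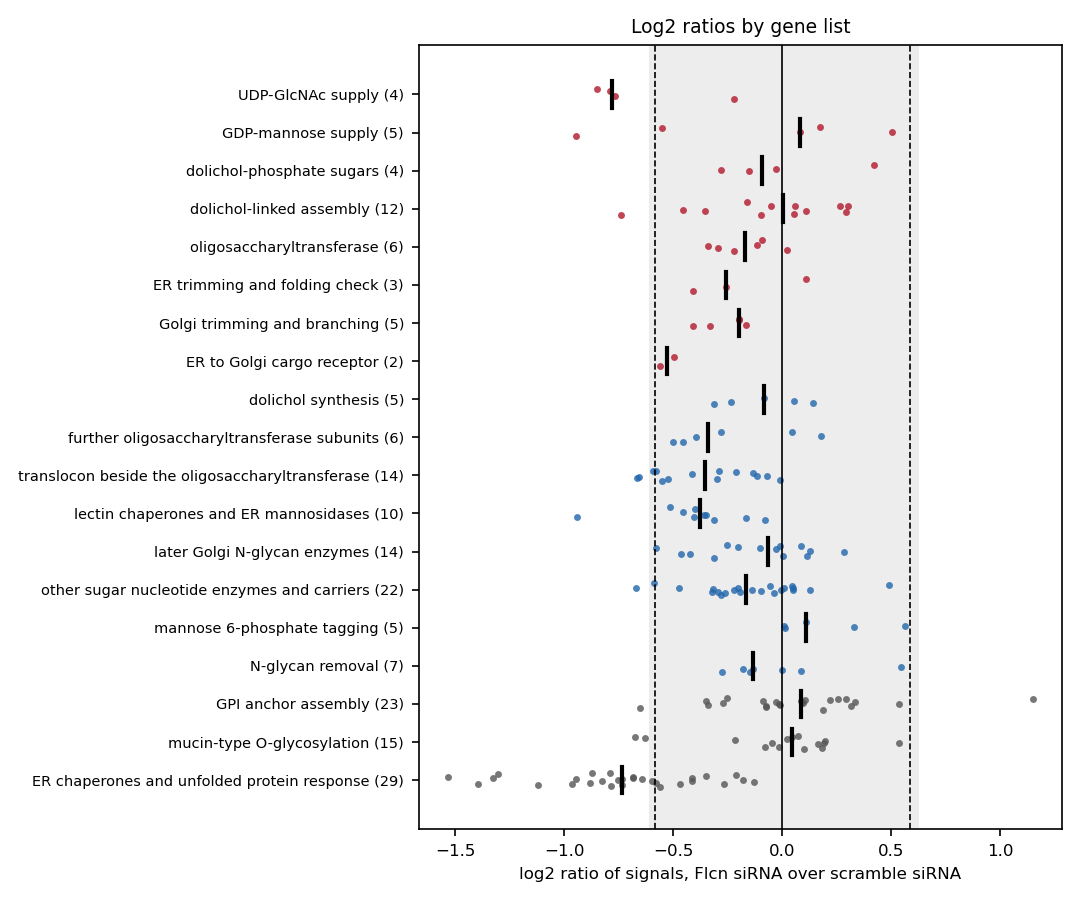
Log2 ratios (*Flcn* siRNA array divided by scramble siRNA array) of genes above the signal filter, with the number of genes in parentheses. Red rows are the steps described here, blue rows other genes of the pathway and grey rows comparison lists, black bars are medians, dashed lines mark 1.5-fold and the grey band runs from the 5th to the 95th percentile of all genes. The rows farthest left are ER chaperones and the unfolded protein response (median -0.73) and UDP-GlcNAc supply (median -0.78).

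Related lists are given for comparison, with no test of the difference. GPI anchor assembly, which uses the same dolichol-phosphate mannose, had 1 of 23 genes lower (4.35%), *Piga* (-0.65), and 1 higher, *Pigt* (1.15). Of all genes 5.52% were lower and 5.85% higher. The median of the list was 0.09, or 0.00062 with median scaling. *Pigt* had weak signals of 25.6 and 56.8 at the probe set used. The probe sets of *Pigt* ranged from -0.12 to 1.15, so its direction depends on the probe set. Next to these lay *Pigb* (-0.35) and *Pigu* (0.54). The other probe set of *Pigb* above the filter had 0.36. Mucin-type O-glycosylation, which starts in the Golgi apparatus without dolichol, had 2 of 15 lower (13.3%, beside 5.52% of all genes), *Gcnt1* (-0.68) and *Galnt3* (-0.63). The median of this list was 0.04, or -0.045 with median scaling. Its highest were *St6galnac6* (0.54) and *Galnt10* (0.20). *Galnt10* had weak signals of 22.6 and 25.9, and its other probe set above the filter had -0.42. ER chaperones and genes of the unfolded protein response lay below 0 in 29 of 29 cases at the probe sets used, beside 48.1% of all genes. Lower by 1.5-fold or more were 19 (65.5%), beside 5.52% of all genes, and the median of the list was -0.73. The 19 were *Creld2*, *Sec24d*, *Sel1l*, *Dnajc3*, *Pdia4*, *Syvn1*, *Sdf2l1*, *Manf*, *Dnajb11*, *Dnajb9*, *Ero1b*, *Hyou1*, *Derl1*, *Ddit3*, *Atf6*, *Pdia6*, *Selenok*, *Dnajc10* and *Trib3*. The probe sets of *Atf6* ranged from -0.73 to 0.15 and those of *Pdia6* from -0.68 to 0.05, so their direction depends on the probe set. The lowest were *Creld2*, with -1.53, and *Sec24d*, with -1.40, and the highest of the 29 were *Xbp1*, with -0.18, and *P4hb*, with -0.13. *Xbp1* also had probe sets on both sides of 0, from -0.37 to 0.09. Whether the lower signals of these genes and of the glycosylation genes are linked was not tested. *Gfpt1* is a known target of the unfolded protein response factor Xbp1, whose transcript had signals of 3293 and 2910.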

How the data were processed

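RAW264.7 cells transfected with scramble or *Flcn* siRNA were measured on 1 Affymetrix array per condition. Per the labels and the methods, the authors used GCOS to obtain the deposited values, a linear signal intensity for every probe set. After leaving out 2% of the values at both ends, the mean on each array is 100. The scaling target was not given in the sources used here, and no detection calls were used. Of 45101 probe sets, 64 were controls, 34958 named 1 gene, 932 named several and were left out, and 9211 are not listed in the platform annotation. Symbols were updated by Entrez ID to RefSeq GRCm38.p6 for 34754. The 42 genes and all lists were chosen with earlier results of these data known. The rule for names was all 42 genes and, from other lists, genes past 1.5-fold and the 2 highest and 2 lowest. *Gfpt2*, *Spcs1*, *Sec11c*, *Sec63*, *Erlec1*, *Pdia3*, the marker genes given with values and the *Alg12* promoter fall outside it. So do the neighbours of overlapping promoter windows other than *Creld2*. All of these were added with their values known. The alternatives were median scaling, quantile normalization, other ways to combine probe sets, other floors and other filters. No p-value was computed, and functions were tested on simulated data. Python 3.11.15 was used with numpy 2.4.6, with pandas 2.3.3 and with matplotlib 3.10.9.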

Additional observations from a re-analysis of the deposited data

How the results depend on the processing

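Across 10 alternatives and 16 counts and medians, 148 of 160 values stayed within 1.5 times the count or within 0.1 of the median, and 12 moved further. The number of genes lower by 1.5-fold or more was 8 with median scaling, where the 5 calls were kept, and 3 with the mean of all probe sets, where *Alg12* and *Gmppb* were kept and *Gmppa* was added, beside 3.42% of all genes. With that mean the median of the genes was -0.10, that of UDP-GlcNAc supply -0.34, above that of the cargo receptor, -0.47, that of ER trimming and the folding check -0.084 and that of GDP-mannose supply -0.094. With the mean of probe sets above the filter, an alternative chosen after seeing the data, UDP-GlcNAc supply had -0.55 and GDP-mannose supply -0.094, while 4 of the 5 calls were kept and *Gmppa* was added. With probe sets unique to 1 transcript the medians were -0.35 for GDP-mannose supply, -0.34 for the oligosaccharyltransferase and -0.63 for the cargo receptor, over 34 genes in all. That of the oligosaccharyltransferase leaves out *Rpn1*, *Rpn2* and *Dad1* and is the value of *Stt3b*, so it covers other genes than the main median. GPI anchor assembly had -0.013 with a filter at the 75th percentile. With unique probe sets the 5 calls were kept and *Lman1* was added, with -0.70, which made 6, beside 5.63% of all genes. The other settings kept the 5 calls and added none.

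*Gmppb* ranged from -1.04 to -0.95 and *Alg12* from -0.83 to -0.72 over all settings. *Gnpnat1* ranged from -0.88 to -0.48, *Uap1* from -0.86 to -0.47 and *Gfpt1* from -0.94 to -0.09, each nearest to 0 with the mean of all probe sets, which takes in probe sets under the signal filter. No paired analysis was possible because each condition has 1 array. With 1 array per condition no replicate could be left out, and genes near the array's median signal, such as *Alg13*, have imprecise ratios.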
